A study of Mus musculus with 9 samples.

Results

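Mitochondria make only a few of their own proteins. The rest are made in the cytosol and pass through the TOM complex of the outer membrane. From there the small TIM chaperones of the intermembrane space escort membrane proteins to the TIM22 complex, while proteins with an N-terminal presequence pass through the TIM23 complex and are pulled into the matrix by an Hsp70 motor. The genes described here are those of the translocases themselves, taken by name: rows of the expression table whose symbol is Timm or Tomm followed by a digit, with pseudogene names ending in -ps dropped, of which there were 0. The rule gave 26 of 24493 rows, 11 Tomm rows for the outer membrane side and 15 Timm rows for the inner membrane side. It also took in Tomm34, a cytosolic co-chaperone, and Tomm6os, a noncoding transcript opposite Tomm6.

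RNA was sequenced from 6620c1, a line of mouse pancreatic tumor cells, at day 0 and after 2 and 14 days in a medium poor in nutrients and oxygen, with 3 samples a day. The labels give the same medium for all 9 samples, namely DMEM whose amino acids were cut to 20% of the usual level, with glucose at 2.5 mM and fetal calf serum at 0.5%, and no further treatment. They state neither the medium before day 0 nor the oxygen level, and the meaning of the prefix WT in the column names is not given in the sources used here. No sample was held for 2 or 14 days outside this medium, so the effects of the medium and of time itself cannot be told apart. The line is 1 cell line, and nothing says whether the 3 samples of a day were separate cultures, so the p-values below reflect only how far these samples vary, and that variation may be technical.

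Values are TPM, which are corrected for transcript length and add up to 1 fixed total per sample. They can be compared between genes, they hold no read totals, so the depth is unknown, and they give shares of the RNA and not amounts per cell. In bulk RNA, fewer cells of a kind and less RNA per cell cannot be told apart. A row was tested where at least 3 samples had at least 1 TPM, which held for 12693 rows. Of 7 markers of pancreatic ductal epithelium 6 had at least 1 TPM in every sample, and the summed level of the list lay between 10795 and 11448 TPM on day 0, between 5483 and 7611 on day 2 and between 6807 and 8578 on day 14. Within this list the markers moved unevenly: Krt7 lay between 1434 and 1561 TPM on day 0, between 454 and 475 on day 2 and between 457 and 574 on day 14, while Sox9 lay between 6.90 and 10.1, 26.5 and 38.9, and 21.7 and 35.2 on those days. Cdh1, at 224 to 248 TPM on day 0 and 217 to 235 on day 2, and Epcam, at 1.54 to 2.80 and 0.429 to 0.957, were higher on day 14, at 360.4 to 428 and 10.9 to 19.8 TPM, so the sum follows the keratins. The part of these differences in the results was not tested. Summed markers of fibroblasts, leukocytes, endothelium, acinar cells and islet cells reached at most 3.12, 8.08, 0.979, 5.92 and 1.46 TPM in any sample. The row Mir6236 alone took 8.27% to 22.5% of all TPM, the highest share being in day 2 replicate 3, and with microRNA and snoRNA rows removed 20 of the 21 calls at day 2 and 15 of the 16 at day 14 against day 0, given below, were kept.

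Most transcripts of the import machinery were lower at day 2 and at day 14 in the deprivation medium than at day 0. In deposited TPM the means of 22 of 23 were lowest at day 2, and the share of all rows with this order was not counted. The median of all tested rows also rose from day 2 to day 14, by 0.25 in log2. Timm17b, Timm44, Timm8b, Tomm20, Tomm34 and Tomm40l were instead lower at day 14 than at day 2 under median-of-ratios scaling and quantile normalization, without a call. Of the 26 rows, 23 passed the expression filter. At day 2, 21 of the 23 passed as lower than at day 0, by limma at an adjusted p under 0.05, and 0 were higher, also at an unadjusted p under 0.05. Over all tested rows 31.9% were lower and 27.1% higher in that comparison. The median log2 fold change of the 23 was -0.90, against -0.02 for all tested rows. At day 14, 16 of the 23 were lower than at day 0 and 0 were higher, again also at an unadjusted p under 0.05, where 18.8% of all rows were lower and 36.2% higher. Their median was -0.65, against 0.22 for all rows, a log2 difference of -0.87 between the medians, which was -0.89 at day 2. Both comparisons share the day 0 samples. Median-of-ratios scaling moved the median of all rows at day 14 by -0.20 and gave 3458 higher and 3651 lower rows, against 4601 and 2389 as reported, and quantile normalization gave 2843 and 3363. The import rows called lower at day 14 were then 21, with Timm22, Timm9, Tomm20, Tomm34 and Tomm7 gained, under median-of-ratios scaling and 17 under quantile normalization. At day 2 removal of the 20 most abundant rows moved it by 0.16 and gave 4563 higher and 3457 lower rows, against 3438 and 4046 as reported, with 18 import rows lower. Across the scalings the members' median stayed below that of all rows, by log2 differences of -0.89 to -0.72 at day 2 and -0.89 to -0.56 at day 14. The summed TPM of all 26 rows was 2512, 2725 and 2663 in the day 0 samples, 1121, 1266 and 1032 in the day 2 samples and 1441, 1499 and 1600.2 in the day 14 samples. The 3 days did not overlap in this sum, whose mean stood at 43.3% of the day 0 mean at day 2 and at 57.5% at day 14.

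**Figure D1:**
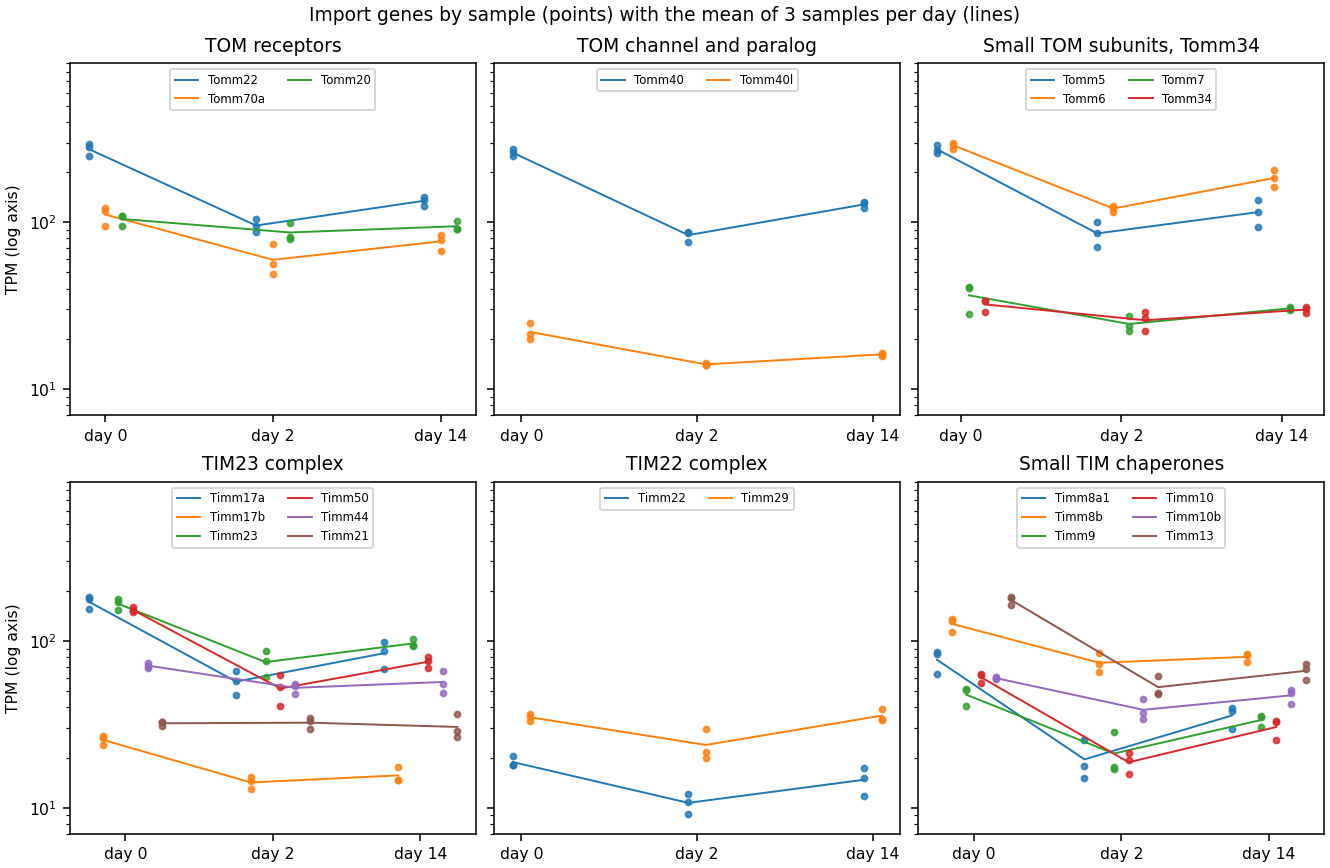
TPM on a log axis for the 23 tested import genes in each of 9 samples (points), in 6 panels by complex, with lines joining the means of 3 samples at day 0, day 2 and day 14, which are spaced evenly and not to time. For 22 of the 23 genes the mean of these TPM at day 2 was the lowest of the 3 days, the exception being Timm21. For some of them this order depended on the scaling.

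The outer membrane translocase did not change evenly: Tomm22, Tomm40 and Tomm5 had the largest log2 falls among its rows at day 2, and Tomm20 the estimate nearest 0. These orders were not tested. Tomm22, the central receptor and organizer of the complex, fell at both times. Tomm22 levels were 249.5, 281 and 295 TPM in the day 0 samples, 94.8, 105 and 87.6 in the day 2 samples, and 136, 125 and 142 in the day 14 samples. All values of both later days lay below all values of day 0, and day 14 lay above day 2. The log2 fold change relative to day 0 was -1.52 (adjusted p = 4.25e-06 by limma, SE 0.11) at day 2 and -1.03 (adjusted p = 9.02e-05 by limma, SE 0.11) at day 14. Tomm40, the barrel that forms the channel, followed the same course. Tomm40 levels were 249, 263 and 274 TPM in the day 0 samples, 86.8, 88.04 and 76.5 in the day 2 samples, and 121, 133 and 129.8 in the day 14 samples. Its mean at day 2 was 31.99% of that at day 0, with a log2 fold change of -1.63 (adjusted p = 1.38e-06 by limma, SE 0.09), and at day 14 it was 48.9%, with -1.03 (adjusted p = 4.97e-05 by limma, SE 0.09). The days did not overlap for Tomm40.

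Tomm20, the receptor that binds presequences first, passed the test in neither comparison. Tomm20 levels were 94.8, 109.6 and 109.6 TPM in the day 0 samples, 81.96, 99.1 and 79.7 in the day 2 samples, and 91.1, 90.98 and 102 in the day 14 samples. The days overlapped, and the log2 fold changes were -0.27 (adjusted p = 0.0691 by limma, SE 0.11) at day 2 and -0.14 (adjusted p = 0.316 by limma, SE 0.11) at day 14 against day 0. The sign at day 2 turned under quantile normalization, at 0.083. Tomm20 was called lower at day 2 without day 2 replicate 2, at -0.37, and at day 14 under median-of-ratios scaling, at -0.37. Tomm70a, the receptor for carrier proteins that arrive with cytosolic chaperones, had an intermediate estimate and a mean of 111 ± 14.8 TPM on day 0, 59.6 ± 12.9 on day 2 and 76.8 ± 8.42 on day 14 (SD, n = 3 each). It fell at day 2, with a log2 fold change of -0.90 (adjusted p = 0.00142 by limma, SE 0.17), and at day 14, with -0.53 (adjusted p = 0.0245 by limma, SE 0.17). The call at day 14 was lost without replicate 2 or 3 of day 0 and without replicate 1 or 2 of day 14. Tomm34, the cytosolic co-chaperone, had a mean of 32.2 ± 2.65 TPM on day 0, 25.9 ± 3.31 on day 2 and 29.97 ± 1.14 on day 14 (SD, n = 3 each) and a log2 fold change at day 2 of -0.31 (adjusted p = 0.0484 by limma, SE 0.12), a call that was kept in 6 of the 21 alternatives. At day 14 it was at -0.10 (adjusted p = 0.505 by limma, SE 0.12), and was called lower under median-of-ratios scaling, at -0.32.

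The small TOM subunits, which stabilize the channel complex, differed in level and in change. Tomm5 levels were 260.4, 292 and 269.9 TPM in the day 0 samples, 70.7, 101 and 86.1 in the day 2 samples, and 93.4, 116 and 136 in the day 14 samples. Tomm6 levels were 301, 293 and 276 TPM in the day 0 samples, 122, 125 and 116 in the day 2 samples, and 162, 183 and 207 in the day 14 samples. For both, each sample of day 2 and day 14 lay below each sample of day 0. The fitted log2 change at day 2 was -1.68 (adjusted p = 2.85e-05 by limma, SE 0.16) for Tomm5 and -1.25 (adjusted p = 1.16e-05 by limma, SE 0.10) for Tomm6. At day 14 against day 0 the log2 fold changes were -1.26 (adjusted p = 0.000262 by limma) for Tomm5 and -0.66 (adjusted p = 0.000768 by limma) for Tomm6. Tomm7, the least abundant of these subunits, had a mean of 36.5 ± 7.32 TPM on day 0, 24.6 ± 2.65 on day 2 and 30.5 ± 0.538 on day 14 (SD, n = 3 each). It fell at day 2, with -0.54 (adjusted p = 0.0136 by limma, SE 0.15), and did not pass at day 14, with -0.23 (adjusted p = 0.223 by limma, SE 0.15). The call at day 2 was lost under quantile normalization, after removal of the 20 most abundant rows and without day 0 replicate 1 or 2. Tomm7 was called lower at day 14 under median-of-ratios scaling, at -0.45, and without day 0 replicate 3, at -0.41. Tomm6os was at most 1.08 TPM in any sample and was not tested. The sources used here do not say whether reads were assigned by strand. Reads from any stretch that Tomm6 and this opposite transcript may share thus cannot be told apart.

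On the inner membrane side the presequence translocase TIM23 also held large and small changes. Timm17a, which lines the translocation path, Timm23, its partner, and Timm50, the receptor that takes presequences from TOM, all fell at both times. Timm17a levels were 156, 183 and 179 TPM in the day 0 samples, 65.7, 57.8 and 47.6 in the day 2 samples, and 98.3, 68.1 and 86.6 in the day 14 samples. Timm23 levels were 153, 177 and 172 TPM in the day 0 samples, 75.8, 87.5 and 60.8 in the day 2 samples, and 92.8, 95.1 and 102 in the day 14 samples. Timm50 levels were 148, 160.1 and 153 TPM in the day 0 samples, 62.3, 52.7 and 40.6 in the day 2 samples, and 75.9, 68.8 and 80.4 in the day 14 samples. In each case both later days lay wholly below day 0 and day 14 lay wholly above day 2. At day 2 against day 0 the log2 fold change was -1.59 (adjusted p = 3.86e-05 by limma, SE 0.16) for Timm17a. It was -1.17 (adjusted p = 8.47e-05 by limma, SE 0.13) for Timm23 and -1.57 (adjusted p = 2.4e-05 by limma, SE 0.15) for Timm50. At day 14 against day 0 it was -1.04 (adjusted p = 0.000721 by limma), -0.78 (adjusted p = 0.00122 by limma) and -1.03 (adjusted p = 0.00046 by limma) for the same genes in that order.

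Timm44, which anchors the Hsp70 motor at the channel, had smaller estimates, with a mean of 71.2 ± 2.51 TPM on day 0, 52.3 ± 3.92 on day 2 and 56.8 ± 8.96 on day 14 (SD, n = 3 each). Its log2 fold change was -0.44 (adjusted p = 0.0129 by limma, SE 0.12) at day 2 and -0.33 (adjusted p = 0.0451 by limma, SE 0.12) at day 14 against day 0. The first call was lost under quantile normalization and after removal of the 20 most abundant rows, and the second under 12 of the 21 alternatives. Timm21, which links TIM23 to the outer membrane complex and to respiratory chain assembly, was the member nearest to 0 at day 2. Timm21 levels were 32.6, 32.8 and 30.8 TPM in the day 0 samples, 33.00, 34.6 and 29.5 in the day 2 samples, and 26.5, 36.3 and 28.7 in the day 14 samples. The 3 days overlapped. The log2 fold change at day 2 was 0.01 (adjusted p = 0.956 by limma, SE 0.13), and at day 14 it was -0.08 (adjusted p = 0.609 by limma, SE 0.13). Its sign was not stable when single libraries were left out.

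The TIM22 complex inserts carrier proteins into the inner membrane. Timm22, its channel, had a mean of 18.8 ± 1.44 TPM on day 0, 10.7 ± 1.43 on day 2 and 14.7 ± 2.86 on day 14 (SD, n = 3 each), with a log2 fold change of -0.76 (adjusted p = 0.00264 by limma, SE 0.16) at day 2 and -0.35 (adjusted p = 0.0894 by limma, SE 0.16) at day 14 against day 0. Timm22 was called lower at day 14 under median-of-ratios scaling, at -0.56, under quantile normalization, at -0.58, and without day 14 replicate 3, at -0.47. Timm29, a subunit found in animals, passed as lower than at day 0 at day 2 and not at day 14. Timm29 levels were 34.8, 36.5 and 33.3 TPM in the day 0 samples, 21.6, 29.8 and 19.97 in the day 2 samples, and 34.1, 33.7 and 39.2 in the day 14 samples. The day 2 samples lay below all others, and day 14 overlapped day 0. The log2 fold change was -0.55 (adjusted p = 0.0104 by limma, SE 0.15) at day 2 and 0.03 (adjusted p = 0.881 by limma, SE 0.15) at day 14 against day 0, and 0.58 between day 14 and day 2 (limma, adjusted p = 0.0172). The last call was lost under median-of-ratios scaling, under quantile normalization, with only the groups compared in the fit, and without replicate 1 or 3 of day 2 or replicate 3 of day 14.

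The small TIM chaperones held the 2 largest falls of the machinery at day 2. These proteins carry hydrophobic precursors across the intermembrane space. Timm8a1, the mouse counterpart of a gene mutated in human deafness-dystonia syndrome, fell to 25.2% of its day 0 mean at day 2. Timm8a1 levels were 63.1, 85.4 and 83.2 TPM in the day 0 samples, 15.1, 25.6 and 17.7 in the day 2 samples, and 29.6, 39.6 and 38.02 in the day 14 samples. Its log2 fold change was -1.95 (adjusted p = 4.82e-05 by limma, SE 0.20) at day 2 and -1.09 (adjusted p = 0.00197 by limma, SE 0.20) at day 14 against day 0. Timm13, which pairs with Timm8a1, was next. Timm13 levels were 184, 181 and 165 TPM in the day 0 samples, 48.7, 61.99 and 47.8 in the day 2 samples, and 58.01, 67.5 and 73.2 in the day 14 samples. Its log2 fold change was -1.73 (adjusted p = 6.74e-06 by limma, SE 0.13) at day 2 and -1.41 (adjusted p = 5.6e-05 by limma, SE 0.13) at day 14, the largest fall of any member at day 14. The samples of both later days lay below those of day 0 in both genes.

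Timm9 and Timm10 form the other chaperone hexamer. Timm10 levels were 63.2, 55.98 and 62.5 TPM in the day 0 samples, 19.2, 21.1 and 15.8 in the day 2 samples, and 25.5, 32.8 and 33.1 in the day 14 samples. Timm9 levels were 40.5, 50.5 and 51.7 TPM in the day 0 samples, 17.2, 28.6 and 17.6 in the day 2 samples, and 30.4, 35.4 and 35.01 in the day 14 samples. Both lay below day 0 in all later samples and higher at day 14 than at day 2 without overlap. Timm10 had log2 fold changes of -1.65 (adjusted p = 1.53e-05 by limma, SE 0.14) at day 2 and -0.97 (adjusted p = 0.000519 by limma, SE 0.14) at day 14 against day 0. Timm9 fell at day 2, with -1.16 (adjusted p = 0.000737 by limma, SE 0.19), and did not pass at day 14, with -0.48 (adjusted p = 0.0579 by limma, SE 0.19), although 9 of the 21 alternatives called it lower at day 14. Timm10b, a small TIM bound to the TIM22 complex, had a mean of 59.9 ± 1.02 TPM on day 0, 38.6 ± 5.54 on day 2 and 47.2 ± 4.57 on day 14, and Timm8b had a mean of 127 ± 11.6 TPM on day 0, 74.01 ± 9.88 on day 2 and 80.3 ± 5.01 on day 14 (SD, n = 3 each). Timm10b fell at day 2, with -0.63 (adjusted p = 0.00183 by limma, SE 0.12). It was lower at day 14 by a log2 fold change of -0.34 (adjusted p = 0.0388 by limma, SE 0.12), a call lost without any 1 of the day 0 replicates or without day 14 replicate 1 or 2. Timm8b fell at both times, with -0.77 (adjusted p = 0.000528 by limma) at day 2 and -0.65 (adjusted p = 0.00183 by limma) at day 14 against day 0. Timm8a2 was listed at 0 in 8 of 9 samples and Tomm20l in 6 of 9, at most 0.121 and 0.382 TPM, and neither was tested.

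**Figure D2:**
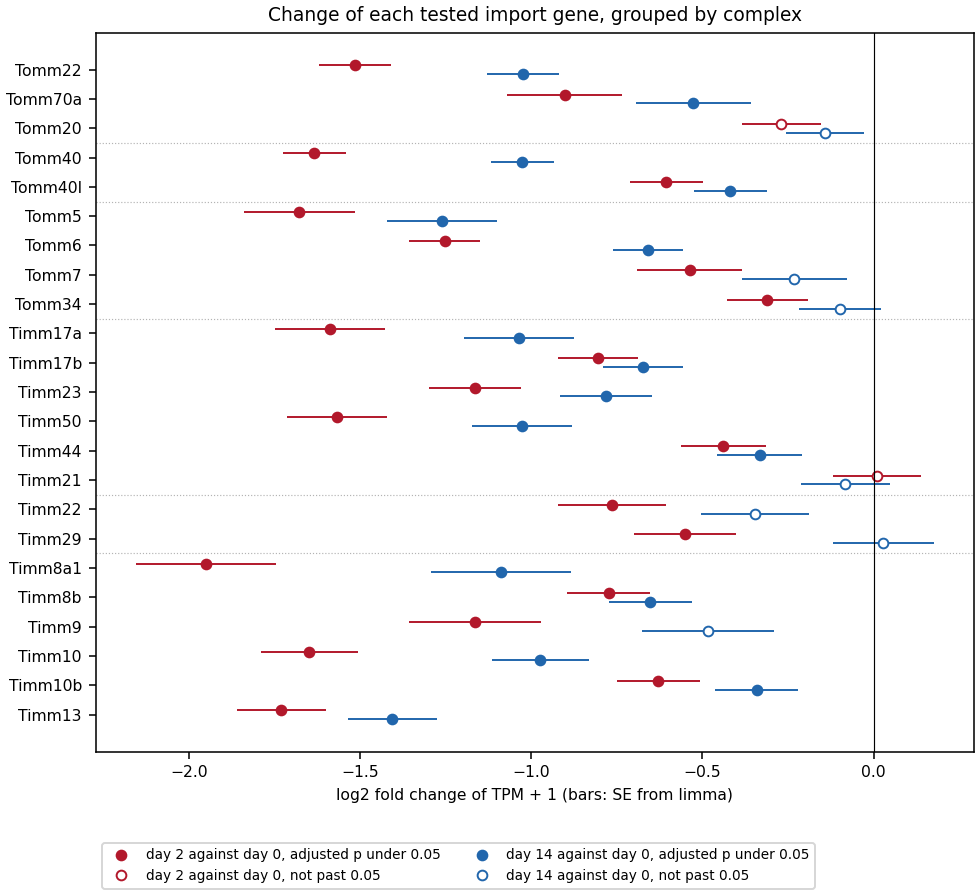
Log2 fold change on the log2(TPM + 1) scale, with its SE from limma, for the 23 tested import genes in rows by complex, at day 2 (red) and at day 14 (blue) against day 0, 3 samples a day. Filled points passed an adjusted p of 0.05. At day 2 the estimates run from -1.95 for Timm8a1 to 0.01 for Timm21.

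The promoter letters of 4 members are shown to set genes with large and small changes side by side, and the 4 were chosen after their values were seen. They are RefSeq windows of 300 bases on GRCm38.p6, 250 before and 50 after the start, and the build behind the deposited values is not given in the sources used here. Timm8a1 and Timm10 fell strongly and hold the E-box letters CACGTG, bound by MYC and related factors. Tomm40 fell strongly and holds none of the searched motifs. The other members with a log2 fold change of -1.25 or lower at day 2 hold no CACGTG. They are Timm13, Tomm5, Timm17a, Timm50, Tomm22 and Tomm6. Tomm20 holds an E-box and passed the test at neither time. Capitals mark CACGTG or, in Timm10, also the ETS-type letters CCGGAAGT.
Timm8a1, chrX:134541621-134541920, minus strand: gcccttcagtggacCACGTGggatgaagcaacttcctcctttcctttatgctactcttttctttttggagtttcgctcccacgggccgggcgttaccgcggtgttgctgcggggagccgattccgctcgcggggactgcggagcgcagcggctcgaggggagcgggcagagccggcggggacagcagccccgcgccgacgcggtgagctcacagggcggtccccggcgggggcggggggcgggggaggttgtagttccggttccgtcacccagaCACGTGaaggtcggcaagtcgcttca
Timm10, chr2:84826771-84827070, plus strand: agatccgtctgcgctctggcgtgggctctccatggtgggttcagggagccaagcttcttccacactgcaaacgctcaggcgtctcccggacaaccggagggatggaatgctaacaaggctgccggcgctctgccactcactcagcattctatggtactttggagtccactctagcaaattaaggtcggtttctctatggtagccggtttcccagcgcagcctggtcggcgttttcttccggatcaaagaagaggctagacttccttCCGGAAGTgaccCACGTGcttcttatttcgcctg
Tomm40, chr7:19715380-19715679, minus strand: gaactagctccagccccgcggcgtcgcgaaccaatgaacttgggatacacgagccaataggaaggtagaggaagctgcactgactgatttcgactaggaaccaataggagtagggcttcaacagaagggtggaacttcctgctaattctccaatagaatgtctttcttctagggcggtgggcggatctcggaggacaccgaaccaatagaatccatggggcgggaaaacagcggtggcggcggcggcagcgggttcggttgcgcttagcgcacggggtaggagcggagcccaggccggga
Tomm20, chr8:126945872-126946171, minus strand: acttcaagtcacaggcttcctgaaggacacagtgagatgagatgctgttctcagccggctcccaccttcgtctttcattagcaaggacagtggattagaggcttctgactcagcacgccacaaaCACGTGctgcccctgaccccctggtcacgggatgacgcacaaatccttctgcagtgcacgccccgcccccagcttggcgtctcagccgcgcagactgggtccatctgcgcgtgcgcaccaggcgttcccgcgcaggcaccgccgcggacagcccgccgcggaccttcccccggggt
RefSeq windows were found for 23 of the 26 rows, 25 windows in all, and both strands were searched. CACGTG stood in 6 of the 25 windows, 24.0%, against 7.15% of all 32851 windows, and CCGGAAGT in 6, 24.0%, against 3.89%. The E-box windows were those of Timm10, Timm8a1, Timm9, Tomm20, Tomm20l and Tomm6os, of which Timm10, Timm8a1 and Timm9 were lower at day 2, Tomm20 passed at neither time, and Tomm20l and Tomm6os were not tested. The ETS-type windows were those of Timm10, Timm10b, Timm23, Timm29, Timm8a2 and Tomm70a. The shorter letters ACGTG, the core of the hypoxia response element, stood in 7 windows, 28.0%, against 19.6% of all windows, and 6 of the 7 genes are those with CACGTG, which contains these letters, the other being Timm10b. The NRF1 core GCGCATGC was in the Timm13 window only and the YY1-type letters AAGATGGC in that of Timm50 only, against 2.71% and 2.75% of all windows. The member windows had a median GC content of 58.0%, against 52.7% for all windows.

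The outer and inner membrane sides are set side by side here without a test. The inner side includes the small TIM chaperones of the intermembrane space, and the outer side the cytosolic Tomm34. Median log2 fold changes of the small TIM chaperones were -1.41 at day 2 and -0.81 at day 14 against day 0. Those of the TIM23 rows were -0.99 and -0.73, and those of the TIM22 rows -0.66 and -0.16. The Timm medians below thus mix roles with unlike changes. At day 2, 8 of 9 tested Tomm rows and 13 of 14 tested Timm rows were lower than at day 0, with median log2 fold changes of -0.90 and -0.98. At day 14, 6 of 9 and 10 of 14 were lower than at day 0, with medians of -0.53 and -0.66. Over all tested rows 31.9% were lower at day 2 and 18.8% at day 14. The medians thus differed by 0.08 at day 2 and 0.14 at day 14. The difference of the sides' median log2 levels in single samples had a pooled within-day SD of 0.13. That SD is of levels in single samples and does not measure the error of the differences between fold changes. The difference at day 14 was 0.27 without day 14 replicate 1, and that at day 2 was 0.23 when either the 20 most abundant rows or the microRNA and snoRNA rows were removed. The summed TPM of the Tomm rows averaged 1409 ± 56.7 on day 0, 598 ± 52.6 on day 2 and 811 ± 63.7 on day 14, and that of the Timm rows was 1225 ± 53.4, 542 ± 68.8 and 703 ± 17.3 on the same days (SD, n = 3 each). The Tomm rows made up 53.5% ± 0.184 of the summed import TPM on day 0, 52.5% ± 1.65 on day 2 and 53.5% ± 1.39 on day 14 (SD, n = 3 each). At day 2 single log2 fold changes ran from -1.68 to -0.27 among Tomm rows and from -1.95 to 0.01 among Timm rows.

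Related genes differed within a side. Timm17a and Timm17b encode alternative versions of the same TIM23 subunit, and the ratio of their TPM within a sample does not depend on scaling between samples. The ratio of Timm17a to Timm17b was 5.81, 7.02 and 7.57 in the day 0 samples, 4.56, 4.49 and 3.13 at day 2 and 5.598, 4.66 and 5.88 at day 14. Day 2 lay below day 0 in every sample, and day 14 lay above day 2 and overlapped day 0. Tomm40 and its paralog Tomm40l had ratios of 10.1, 12.3 and 13.8 at day 0, 6.09, 6.31 and 5.47 at day 2 and 7.55, 8.05 and 8.17 at day 14, with no overlap between any of the days. The ratio of Timm8a1 to Timm8b was 0.555, 0.645 and 0.618 at day 0, 0.209, 0.303 and 0.273 at day 2 and 0.3600, 0.472 and 0.5098 at day 14, again without overlap. In these 3 paralog pairs the first gene lost the larger share of its TPM at day 2. Timm17b, with a mean of 25.5 ± 1.61 TPM on day 0, 14.2 ± 1.19 on day 2 and 15.6 ± 1.66 on day 14, and Tomm40l, with a mean of 22.00 ± 2.48 TPM on day 0, 14.1 ± 0.1597 on day 2 and 16.1 ± 0.3299 on day 14 (SD, n = 3 each), still fell, with log2 fold changes at day 2 of -0.81 (adjusted p = 0.00035 by limma, SE 0.12) and -0.61 (adjusted p = 0.00108 by limma, SE 0.11). Timm9 and Timm10, a pair of partners, were added after their values were seen. The ratio of Timm9 to Timm10 was 0.6401, 0.903 and 0.828 at day 0 and 0.893, 1.35 and 1.11 at day 2, where day 2 overlapped day 0. At day 14 it was 1.19, 1.08 and 1.06. The direction of each ratio rests on which gene is written first. The ratios are descriptions and were not tested.

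**Figure D3:**
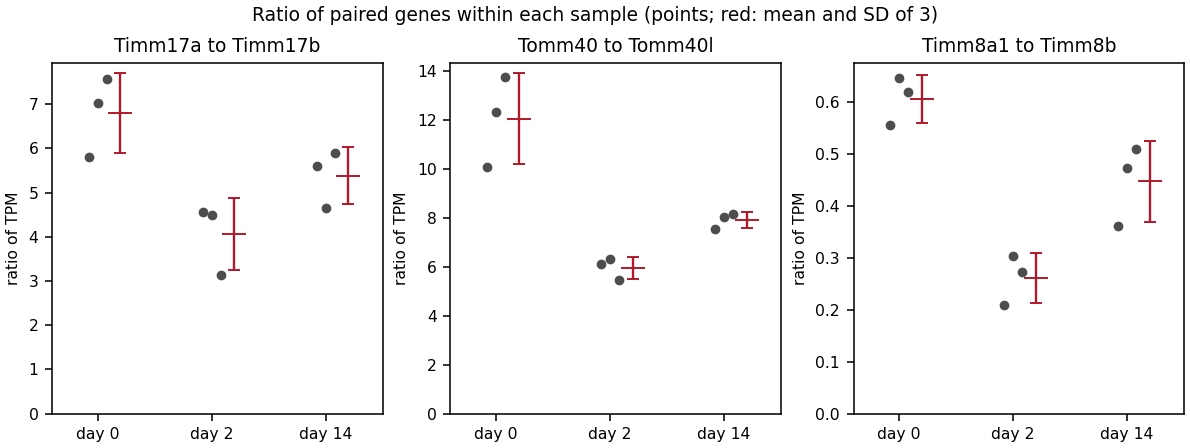
Ratio of TPM of paired import genes within each sample (points, y axis from 0) at day 0, day 2 and day 14, with the mean and SD of 3 samples in red. For the 3 paralog pairs all ratios at day 2 lie below those at day 0, and the mean ratio of Tomm40 to Tomm40l is 5.96 at day 2 and 12.04 at day 0.

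Between day 14 and day 2 part of the machinery was higher. Of the 23 tested rows 9 were higher at day 14 than at day 2 and 0 were lower (limma, adjusted p under 0.05), also 0 at an unadjusted p under 0.05. Over all tested rows 27.4% were higher and 3.79% lower. The median of the members was 0.38 against 0.25 for all rows. The 9 were Timm8a1, Timm9, Timm10, Timm17a, Timm29 and Timm50 on the inner side and Tomm22, Tomm40 and Tomm6 on the outer side. Their log2 fold changes ran from 0.49 to 0.86, and 7 of the 9 were also lower at both later days than at day 0. The share of all tested rows with that course was not counted. The fall at day 2 and the rise from day 2 to day 14 share the day 2 samples. Members called higher numbered 4 under median-of-ratios scaling and 4 under quantile normalization. These scalings moved the median of all rows by -0.24 and -0.31. They gave 1658 higher against 1408 lower rows and 1470 against 1905, where the fit as reported gave 3474 and 481. Removal of the 20 most abundant rows moved that median by -0.11 and gave 2590 higher and 818 lower rows. The members' count was 5 with only the groups compared in the fit and also 5 without day 14 replicate 3, 6 without day 2 replicate 3, and 14 without day 2 replicate 2. Over all tested rows 2325, 2547, 2392 and 3868 were higher in the same order, against 3474 as reported, so the counts of all rows moved too. Timm10, Tomm40 and Tomm6 kept the call in all 21 alternatives.

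Other genes of the import pathway, taken from 7 lists, included some that were not lower. Beside the counts of each list, 31.9% of all tested rows were lower and 27.1% higher at day 2 than at day 0. At day 14 these shares were 18.8% and 36.2%. In the presequence motor, 6 of 8 genes were lower at day 2 than at day 0 and 4 of 8 at day 14, and 0 were higher at either time, also at an unadjusted p under 0.05, with medians of -0.60 and -0.31. Hspa9, the mitochondrial Hsp70 that drives the motor, had a mean of 559.5 ± 45.4 TPM on day 0, 558 ± 95.8 on day 2 and 566 ± 20.4 on day 14 (SD, n = 3 each), with log2 fold changes of -0.01 (adjusted p = 0.931 by limma, SE 0.12) and 0.02 (adjusted p = 0.9 by limma, SE 0.12) at day 2 and day 14 against day 0. Its J-protein partners fell, Dnajc19 with -1.41 (adjusted p = 6.48e-05 by limma) at day 2 and -1.31 (adjusted p = 0.000179 by limma) at day 14, and Dnajc15 with -1.13 (adjusted p = 0.0224 by limma) and -1.16 (adjusted p = 0.0213 by limma). The disulfide relay, which folds small TIM proteins after entry, fell in all 3 genes at both times, with medians of -1.58 and -0.68. Chchd4, the oxidoreductase of the relay, had a mean of 70.2 ± 4.83 TPM on day 0, 16.4 ± 5.81 on day 2 and 43.5 ± 4.85 on day 14 (SD, n = 3 each). Its log2 fold change was -2.08 (adjusted p = 3.21e-05 by limma, SE 0.20) at day 2 against day 0, while day 14 set against day 2 gave 1.40 (SE 0.20, limma, adjusted p = 0.00126). Aifm1, which binds Chchd4, had log2 fold changes of -1.58 (adjusted p = 2.89e-06 by limma) and -0.70 (adjusted p = 0.000516 by limma) at day 2 and day 14 against day 0.

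Of 7 genes for sorting, assembly and insertion in the outer membrane, 4 were lower at day 2 than at day 0, and at day 14 3 were lower and 1, Mtch1, was higher, with medians of -0.70 and -0.36. In percent 57.1% were lower at day 2, against 31.9% of all rows. At day 14 42.9% were lower and 14.3% higher, against 18.8% and 36.2%. Samm50, the core of the assembly complex for barrel proteins, had a mean of 162 ± 8.67 TPM on day 0, 99.8 ± 3.38 on day 2 and 95.5 ± 5.203 on day 14, and Mtx1, a metaxin of that complex, had a mean of 87.9 ± 6.01 TPM on day 0, 31.4 ± 4.34 on day 2 and 53.5 ± 7.69 on day 14 (SD, n = 3 each). Among 7 peptidases 4 were lower and 1, Immp2l, was higher at day 2, and 5 were lower and 0 higher at day 14, with medians of -0.56 and -0.58. In percent 57.1% were lower and 14.3% higher at day 2, against 31.9% and 27.1% of all rows. At day 14 71.4% were lower, against 18.8%. Pmpca, a subunit of the peptidase that removes presequences, had a mean of 116 ± 8.87 TPM on day 0, 48.4 ± 7.45 on day 2 and 58.4 ± 7.77 on day 14, and Mipep, which trims some precursors further, had a mean of 18.7 ± 0.796 TPM on day 0, 6.91 ± 0.6696 on day 2 and 9.34 ± 1.28 on day 14 (SD, n = 3 each). Both insertases for export from the matrix, Oxa1l and Cox18, were lower at day 2, with log2 fold changes of -0.61 (adjusted p = 0.00119 by limma) and -1.01 (adjusted p = 0.00598 by limma), and at day 14 1 of them, Oxa1l, was lower, with -0.46 (adjusted p = 0.00663 by limma). Cox18 had -0.49 (adjusted p = 0.111 by limma) at day 14. Of 4 matrix folding genes 3 were lower at each time, with medians of -0.94 and -0.74. The log2 fold changes at day 14 against day 0 were -1.19 (adjusted p = 0.000859 by limma) for the chaperonin gene Hspd1 and -1.16 (adjusted p = 5.08e-05 by limma) for its co-chaperonin Hspe1.

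Among 9 genes of mitochondrial proteases and stress sensors found in the table, 3 were higher and 3 lower at day 2, and 3 higher and 2 lower at day 14, with medians of -0.13 and 0.21. In percent these were 33.3% higher and 33.3% lower at day 2, against 27.1% and 31.9% of all rows, and 33.3% and 22.2% at day 14, against 36.2% and 18.8%. Lonp1, a matrix protease, had a mean of 125 ± 7.02 TPM on day 0, 344 ± 4.15 on day 2 and 261 ± 41.99 on day 14, and Atf5, a transcription factor linked to the mitochondrial unfolded protein response and also a target of ATF4, had a mean of 31.8 ± 3.605 TPM on day 0, 343 ± 48.5 on day 2 and 317 ± 95.5 on day 14 (SD, n = 3 each). Lonp1 rose, with 1.45 (adjusted p = 9.24e-06 by limma) at day 2 and 1.04 (adjusted p = 0.000127 by limma) at day 14 against day 0, as did Atf5, with 3.39 (adjusted p = 3.19e-06 by limma) and 3.23 (adjusted p = 1.78e-05 by limma). Htra2, an intermembrane space protease, fell, with -1.69 (adjusted p = 4.74e-05 by limma) and -1.20 (adjusted p = 0.000546 by limma). Yme1l1, the inner membrane protease known to degrade TIMM17A in stressed human cells, passed at neither time, with -0.13 (adjusted p = 0.368 by limma) and 0.21 (adjusted p = 0.163 by limma). Over all 7 lists, 25 of 40 genes were lower and 4 higher at day 2, and 21 lower and 4 higher at day 14. In percent these were 62.5% lower and 10.0% higher at day 2, against 31.9% and 27.1% of all rows. At day 14 they were 52.5% and 10.0%, against 18.8% and 36.2%.

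**Figure D4:**
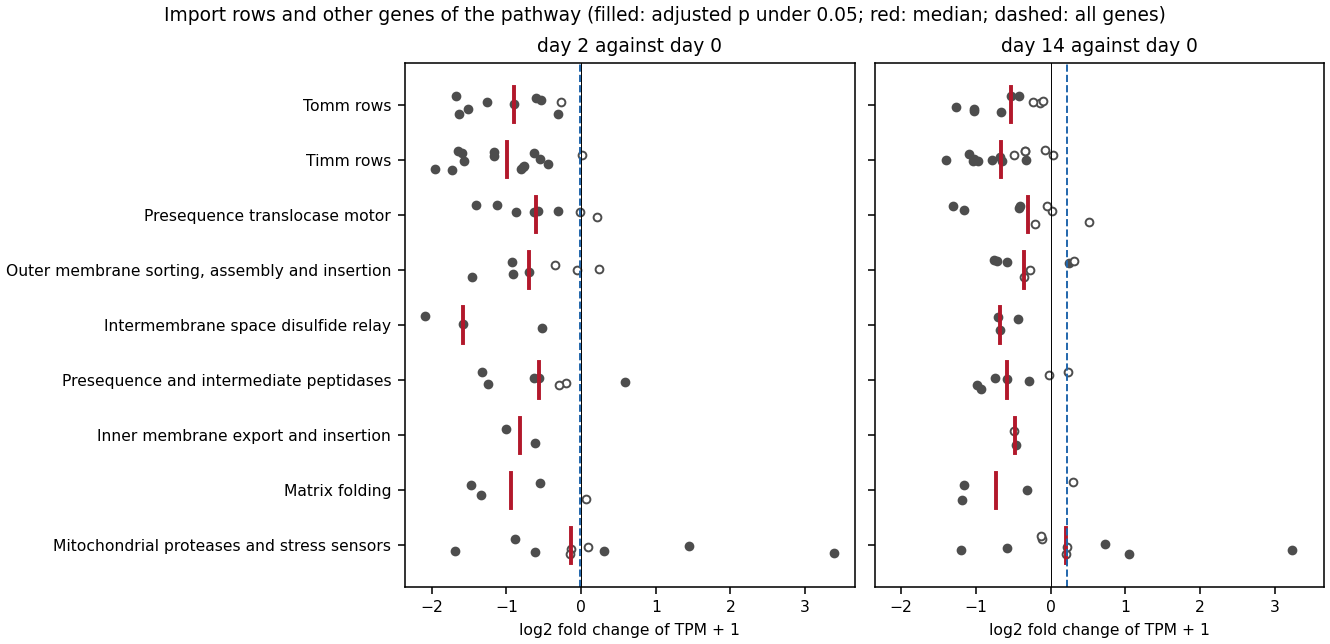
Log2 fold change on the log2(TPM + 1) scale for each tested Tomm and Timm row and each gene of the 7 other pathway lists, at day 2 (left) and day 14 (right) against day 0. Filled points passed an adjusted p of 0.05, red bars are list medians and the dashed line is the median of all 12693 rows, at -0.02 and 0.22, with points jittered within each row. The point farthest to the right is Atf5, at 3.39 and 3.23.

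Set beside other nuclear genes of the mitochondrion, the import rows did not stand alone. Of 78 mitochondrial ribosomal protein rows 68 were lower and 1 higher at day 2 than at day 0, with a median of -0.85, and 59 were lower and 2 higher at day 14, with a median of -0.58. Of 79 tested rows for nuclear subunits of respiratory complexes and ATP synthase 58 were lower and 9 higher at day 2, with a median of -0.61, and 37 were lower and 7 higher at day 14, with a median of -0.29. These medians stand beside -0.90 and -0.65 for the import rows, and no test between the lists was made. Of all tested rows 31.9% were lower and 27.1% higher at day 2, and 18.8% and 36.2% at day 14.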

How the data were processed

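The authors deposited gene TPM for 9 samples, made with Salmon per the submitters' processing notes; the sources used here give no version, index, genome build or annotation. Each deposited TPM column has the same total and was scaled within its sample only. Every column was matched to a sample by title. The members, lists and comparisons were chosen with earlier results of these data known.

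Rows that reached 1 TPM in 3 or more samples (12693 of 24493) were fitted as log2(TPM + 1) with limma 3.58.1 in R 4.3.3, 1 mean per day over all 9 samples, moderated variances with a trend, two-sided p adjusted by Benjamini and Hochberg over all tested rows, calls at an adjusted p under 0.05. This scale understates changes of low genes. The fit was also run on simulated normal data in which few genes changed, far fewer than were called here. That run does not check the calls in these data. All members could be named, and of each other list the 2 genes that changed most between day 14 and day 0, while Hspa9, Lonp1, Yme1l1, Mtch1 and Immp2l were named after their values were seen. Promoters came from RefSeq (GRCm38.p6); a planned search of protein sequences was not made. Alternatives were pseudocounts of 0.1 and 5, 2 filters, 4 rescalings (median-of-ratios, quantile, without the 20 most abundant rows, without microRNA and snoRNA rows), 3 other variance fits, the replicate number as a block, and each library left out. Figures used Python 3.11.15 and matplotlib 3.10.9.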

Additional observations from a re-analysis of the deposited data

Results flagged for a closer look

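For 9 import genes the change from day 0 differed between day 14 and day 2, by the limma test of day 14 against day 2 (adjusted p under 0.05, 3 samples a day). The log2 differences were 0.86 for Timm8a1, 0.68 for Timm9, 0.67 for Timm10, 0.61 for Tomm40, 0.59 for Tomm6, 0.58 for Timm29, 0.55 for Timm17a, 0.54 for Timm50 and 0.49 for Tomm22. All 3 samples of day 14 lay above all 3 of day 2 for each of the 9. As the 9 were picked by a test of those same values, this adds no separate support. Of the 23 tested members 39.1% were called higher and 12 lay wholly above day 2, against 27.4% called higher and 35.1% wholly above among all tested rows. The median difference of all tested rows was 0.25, and that shift was not removed from these values.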

How the results depend on the processing

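No member called in a comparison turned in sign there under any of the 21 alternatives. In many of these the estimate could not move. The filters, variance fits and replicate block left it unchanged, as did leaving out a library of a day not compared. Such cases are counted in the results that follow. Of 1449 member results, 1331 stayed on the same side of the threshold in the same direction, 68 lost the call, 26 gained one and 24 turned in sign, of which 0 were called. Calls kept in every alternative were 18 of 21 at day 2 and 13 of 16 at day 14 against day 0, and 3 of 9 at day 14 against day 2. The share of all tested rows with calls so kept was not counted. Leaving out 1 library at a time gave 19 to 22 members lower at day 2, 13 to 17 lower at day 14 and 5 to 14 higher at day 14 against day 2. Over all tested rows the same ranges were 3456 to 4176, 1814 to 2552 and 2392 to 3868. The members' count at day 14 against day 2 was 4 under median-of-ratios scaling, 4 under quantile normalization and 5 with only the groups compared. Of all tested rows 1658, 1470 and 2325 were then higher, and the cause was not tested. The outer minus inner median difference ranged from 0.01 to 0.16 at day 2, 0.024 to 0.27 at day 14 and -0.08 to 0.04 between day 14 and day 2 when 1 library was left out. At day 2 it was 0.23 without the 20 most abundant rows and 0.23 without microRNA and snoRNA rows, and its cause was not tested.

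Signs that turned, in each case without a call, were these. At day 2 against day 0 Tomm20 was at 0.083 under quantile normalization, and Timm21 ranged from -0.038 to 0.072 when 1 library was left out. At day 14 against day 0 Timm29 was at -0.19 under median-of-ratios scaling, at -0.033 under quantile normalization and at -0.040 to 0.067 with 1 library left out, where Timm21 was at -0.21 to 0.0095. At day 14 against day 2, median-of-ratios scaling gave -0.12 for Timm17b, -0.16 for Timm44, -0.14 for Timm8b, -0.14 for Tomm20, -0.048 for Tomm34 and -0.067 for Tomm40l. Quantile normalization gave -0.19 for Timm17b, -0.15 for Timm44, -0.14 for Timm8b, -0.15 for Tomm20, -0.075 for Tomm34 and -0.13 for Tomm40l. Removal of the 20 most abundant rows gave -0.016 for Timm44 and -0.00093 for Timm8b, and with 1 library left out Timm44 was at -0.011 to 0.21.

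Nothing in the sources used here says whether samples with the same replicate number belong together. With the mean of each day taken out, correlations of same-numbered samples ran from -0.0709 to 0.318, and those of other pairs from -0.265 to 0.224. Of the same-numbered pairs 1 of 9 was over 0.1, and 4 of 9 samples correlated best with their own number. With 3 samples a day these values cannot decide whether the samples were paired. With the replicate block 20 members were lower at day 2, 17 lower at day 14 and 11 higher at day 14 against day 2. Over all tested rows these counts were 4113, 2443 and 3526, against 4046, 2389 and 3474 as reported. Depth is unknown from TPM, so the counting error of low members such as Timm8a2 and Tomm20l cannot be given.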
